A study of Arabidopsis thaliana with 18 samples.

Results

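The nuclear photosynthesis genes of Arabidopsis were followed in dry seeds, in the abci20 mutant against its background Col-0. They are 43 probe sets of the 27827 on the array, taken by locus as nuclear genes for light-harvesting proteins, photosystem I and II subunits, plastocyanin and the Rubisco small subunit, together with Rubisco activase. All 43 were in the deposited values, and 0 of them had values identical to another probe set. They comprised 4 light-harvesting genes of photosystem I, 12 of photosystem II, 9 photosystem II subunit genes, 11 photosystem I subunit genes, 2 plastocyanin genes, and 5 genes for the Rubisco small subunit or its activase.

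The groups were abci20 polysomal RNA, Col-0 polysomal RNA, abci20 total RNA, Col-0 total RNA, abci20 monosomal RNA and Col-0 monosomal RNA, each with 3 arrays. Polysomal RNA is the message carrying several ribosomes, and monosomal RNA the message carrying a lone ribosome. Seeds were taken dry and just harvested, and each replicate pooled the seeds of 8 plants. Both genotypes share the Col-0 ecotype, and the sources used here do not give the kind of mutation in abci20. ABCI20 signal was lower in abci20 by 2.31 log2 in total RNA (adjusted p = 0.00151, limma), 2.32 in polysomal RNA (adjusted p = 0.00406) and 2.40 in monosomal RNA (adjusted p = 0.00195).

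In a leaf, light-harvesting proteins bind chlorophyll and pass light energy to photosystem II, which splits water, and to photosystem I, which reduces ferredoxin. Plastocyanin carries electrons between the cytochrome complex and photosystem I, and Rubisco fixes carbon dioxide. Arabidopsis embryos are green and photosynthetic while they fill, lose chlorophyll before drying, and keep a store of messages in the dry seed.

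Embryo storage messages were bright in every sample: the 9 embryo storage markers lay above the array median on all 18 arrays, between percentiles 94.3 and 99.99 of the probe sets of an array. Of the 5 endosperm markers only EPR1 was above the median on every array, and 0 of the 8 seed coat markers were. Array abci20 total RNA replicate 1 stood apart, with correlations across probe sets of 0.893 and 0.915 with the other arrays of its group, against 0.959 between those. In whole seeds, fewer cells of a type and less RNA per cell cannot be told apart.

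Most photosynthesis probe sets were dim in the dry seed. Values were RMA log2 signals, and brightness does not order different transcripts by abundance. The position of a probe set on its array bears on how well its differences are measured. Of the 43 probe sets, 6 were above the array median on all 18 arrays, 9 were below it on all 18, and 28 crossed it. The 6 bright probe sets were PSBR, RBCS1A, PSBW, LHCB4.1, LHCB4.2 and PSBP-1. The median percentile of a gene over the 18 arrays had a median of 37.0 over the 43 genes and ranged down to 5.96 for PSBQ1 and RBCS1B and up to 91.1 for PSBR. No detection calls were used here, so for the dim probe sets background signal may compress a fold, which was not tested. LHCB1.1 and LHCB1.3, LHCB1.4 and LHCB1.5, and RBCS1B and RBCS2B are immediate neighbours in the RefSeq annotation (TAIR10.1) and belong to families of near-identical copies, so their probe sets may share signal and their separate values are uncertain. RBCS3B lies close by, with 2 genes between it and RBCS2B, and has the same limit. Shared signal may also affect other family members, such as the LHCB2 genes, and was not tested.

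**Figure D1:**
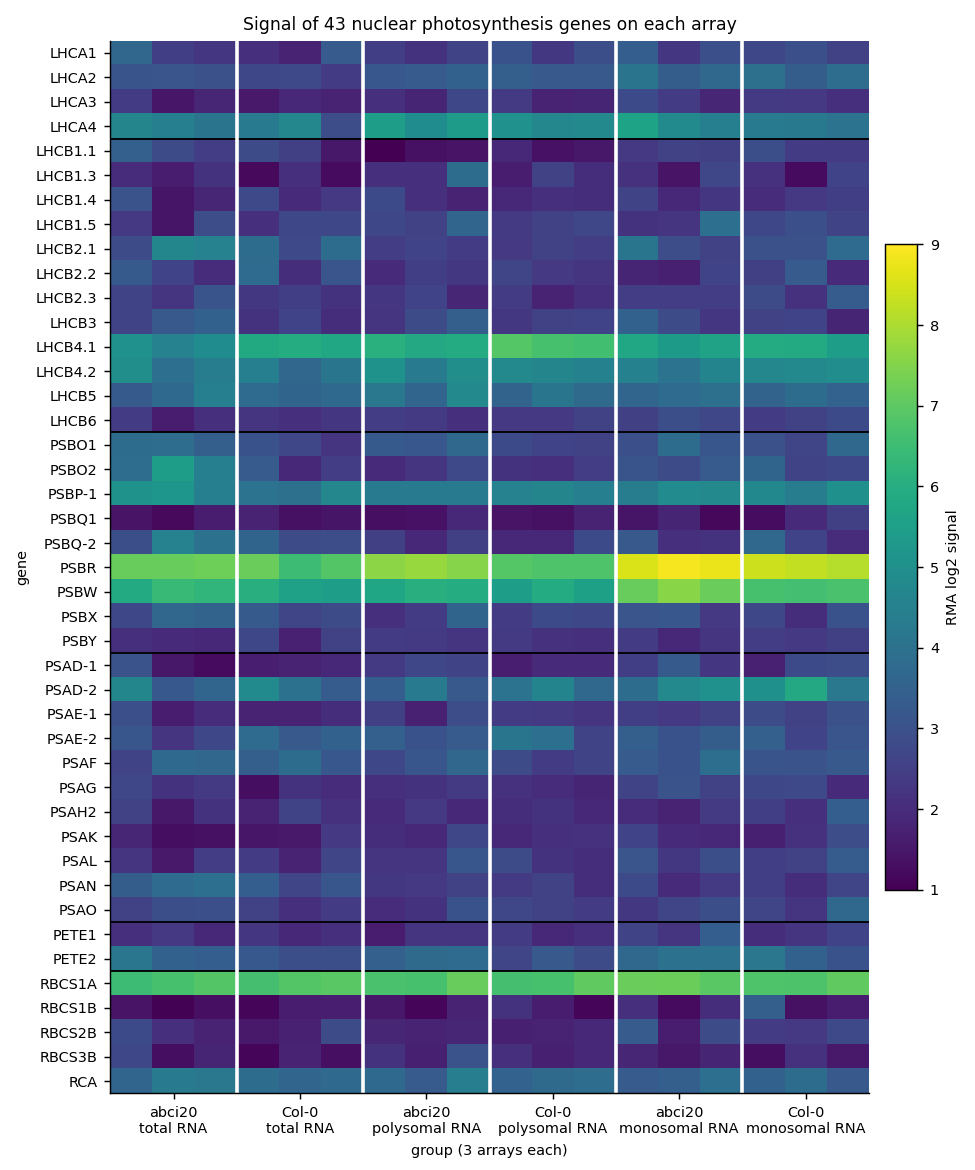
RMA log2 signal (colour) of the 43 genes (rows, in classes separated by black lines) on each array (columns, 3 per group). PSBR, RBCS1A, PSBW and LHCB4.1 are bright on every array, while most other rows stay dark in all groups.

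Total RNA showed whether the stored photosynthesis messages differed between abci20 and Col-0. PSBO2 was higher in abci20 and LHCB4.1 was lower, and these were the only 2 of the 43 genes past an adjusted p of 0.05. Across all probe sets 3.35% passed, 1.11% higher and 2.24% lower, so the share of photosynthesis genes that passed was close to the background. The median fitted difference of the 43 genes was 0.32 log2, beside 0.01 over all probe sets, and 28 of the 43 (65.1%) were above 0, beside 50.7% of all. At an unadjusted p under 0.05 there were 10 genes, 8 higher and 2 lower, or 23.3%, beside 17.5% of all probe sets. Without abci20 total RNA replicate 1 the median was 0.15 and 24 of 43 were above 0, and with each array centred on its median it was 0.18, beside -0.13 over all probe sets.

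PSBO2 (AT3G50820_at) encodes an isoform of the manganese-stabilising protein of the oxygen-evolving complex. Its signal was 3.86, 5.46 and 4.45 in abci20 total RNA, against 3.31, 1.88 and 2.45 in Col-0 total RNA. Every mutant array lay above every Col-0 array. The means were 4.59 ± 0.81 in abci20 and 2.55 ± 0.72 in Col-0 (SD, n = 3 each), a difference of 2.04 log2 (SE 0.393, 95% interval 1.22 to 2.87, 4.12-fold, adjusted p = 0.00887, limma). The probe set moved between percentiles 16.3 and 75.8 over the 18 arrays. The ribosome-bound fractions gave other values. In polysomal RNA it had 1.96, 2.21 and 2.75 in abci20, against 2.17, 2.12 and 2.44 in Col-0. In monosomal RNA it had 3.08, 2.82 and 3.28 in abci20, against 3.59, 2.65 and 2.74 in Col-0. The genotypes overlapped in both fractions, with fitted differences of 0.07 (95% interval -0.76 to 0.89) in polysomal RNA and 0.07 (-0.76 to 0.90) in monosomal RNA.

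PSBO1 (AT5G66570_at), which encodes the other isoform of the same protein, had 3.82, 3.87 and 3.43 in abci20 total RNA, against 3.02, 2.71 and 2.22 in Col-0 total RNA. The genotypes did not overlap, and the difference was 1.06 log2 (SE 0.286, 2.09-fold, adjusted p = 0.0508), on the other side of the threshold from PSBO2. In polysomal RNA it had 3.26, 3.17 and 3.69 in abci20, against 2.80, 2.61 and 2.57 in Col-0, again without overlap (0.72, adjusted p = 0.466). In monosomal RNA the values overlapped, with 2.96, 3.81 and 3.15 in abci20 and 2.98, 2.69 and 3.66 in Col-0.

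LHCB4.1 (AT5G01530_at) encodes CP29, a minor antenna protein that links the outer antenna to the photosystem II core. Its signal was 5.04, 4.54 and 4.90 in abci20 total RNA, against 5.85, 5.95 and 5.81 in Col-0 total RNA. All 3 mutant arrays lay below all 3 Col-0 arrays. The means were 4.83 ± 0.26 in abci20 and 5.87 ± 0.07 in Col-0 (SD, n = 3 each), so it was lower in abci20 by 2.06-fold (log2 difference -1.04, SE 0.201, 95% interval -1.47 to -0.62, adjusted p = 0.0095, limma). In polysomal RNA LHCB4.1 had 6.07, 5.83 and 5.91 in abci20, against 6.90, 6.68 and 6.57 in Col-0. The groups did not overlap there either, but the difference of -0.78 log2 (SE 0.201, 1.72-fold) missed the threshold (adjusted p = 0.119). In monosomal RNA the values were 5.79, 5.35 and 5.61 in abci20 and 5.93, 5.88 and 5.46 in Col-0. These overlapped, and the difference was -0.18 (95% interval -0.60 to 0.25).

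LHCB4.2 (AT3G08940_at), another gene for CP29, had 4.96, 3.93 and 4.39 in abci20 total RNA, against 4.45, 3.64 and 4.1 in Col-0 total RNA. The genotypes overlapped, with a difference of 0.37 (95% interval -0.23 to 0.96). In polysomal RNA it had 5.10, 4.28 and 4.96 in abci20 and 4.77, 4.63 and 4.53 in Col-0. In monosomal RNA the 3 abci20 arrays, at 4.53, 4.04 and 4.62, lay below the Col-0 arrays at 4.70, 4.76 and 4.93 (-0.40, adjusted p = 0.571).

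Both calls in total RNA rested on the spread shared by all 18 arrays. For PSBO2 the SDs in total RNA, 0.81 in abci20 and 0.72 in Col-0, were above those of its other groups, 0.18 to 0.52. Its SD pooled over all 6 groups was 0.53, so its SE and interval rest on less spread than the compared arrays showed. For LHCB4.1 the SDs in total RNA were 0.26 in abci20 and 0.07 in Col-0, against 0.12 to 0.26 in its other groups. When only the 6 arrays of total RNA were fitted, 0 of the 27827 probe sets passed under limma (2765 at an unadjusted p under 0.05), and the adjusted p was 0.291 for PSBO2 and 0.288 for LHCB4.1. Across all 12 alternatives the adjusted p ran from 0.00206 to 0.291 for PSBO2 and from 0.00252 to 0.288 for LHCB4.1. Both passed in the other 11, which included leaving out each compared array. Those 11 all took their spread partly from the polysomal and monosomal arrays, so they do not test that sharing. For PSBO2 the fit of the brighter probe sets is no separate check, since only its abci20 total RNA mean, the one called high, was bright enough to bring it in.

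**Figure D2:**
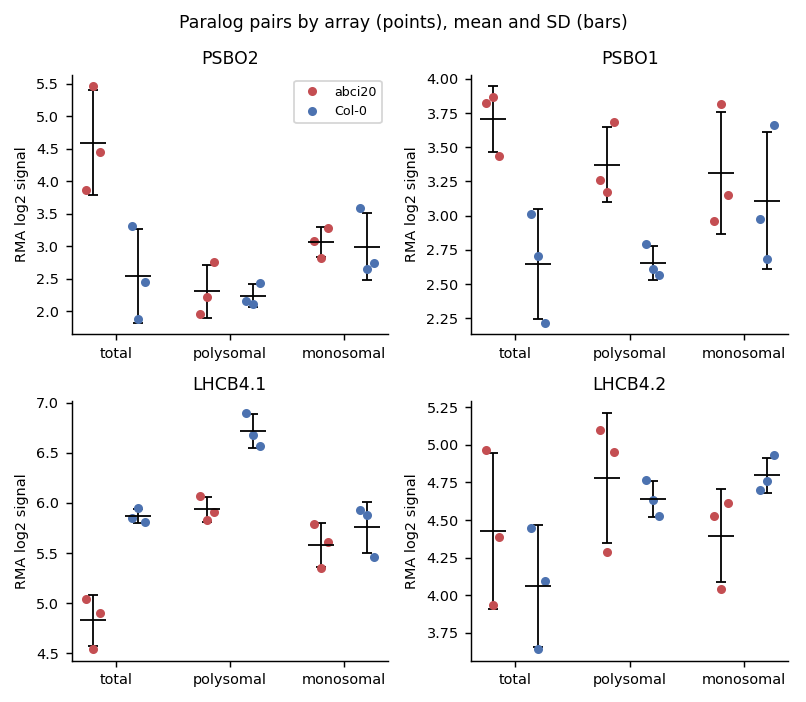
RMA log2 signal by array for PSBO2, PSBO1, LHCB4.1 and LHCB4.2, with abci20 (red) left of Col-0 (blue) in each RNA fraction; bars give the mean and SD of 3 arrays. In total RNA the abci20 points of PSBO2 lie above, and those of LHCB4.1 below, all Col-0 points, while both genes overlap between genotypes in monosomal RNA.

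Of the 9 photosystem II genes, PSBO1 and PSBO2 included, 7 were above 0 in abci20 total RNA, with a median of 0.50. Without PSBO1 and PSBO2 the values ran from -0.34 for PSBY to 0.72 for PSBQ-2. PSBP-1, of the oxygen-evolving complex, had 5.07, 5.19 and 4.45 in abci20 total RNA and 4.06, 3.95 and 4.70 in Col-0 total RNA. These overlapped, and the difference was 0.66 (adjusted p = 0.161). PSBQ-2, another subunit of that complex, differed by 0.72 (SE 0.452, adjusted p = 0.452) and its paralog PSBQ1 by -0.12. PSBR and PSBW, small subunits of photosystem II, differed by 0.34 (adjusted p = 0.4) and 0.50 (adjusted p = 0.243).

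Among the 12 light-harvesting genes of photosystem II, 7 were above 0 in total RNA, with a median of 0.22. LHCB3, of the trimeric antenna, differed by 0.84 (SE 0.344, 1.8-fold, adjusted p = 0.203) without overlap of the genotypes. LHCB1.1, a major antenna gene, differed by 0.64 (95% interval -0.01 to 1.29). All 4 light-harvesting genes of photosystem I were above 0, from 0.18 to 0.44, and LHCA2 had the smallest p of them (0.41, adjusted p = 0.351).

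Photosystem I subunit genes showed no common direction in total RNA: 5 of 11 were above 0, with a median of -0.09. PSAN, which helps plastocyanin dock, differed by 0.62 (SE 0.257, adjusted p = 0.21) and PSAE-2, on the stromal side of the complex, by -0.81 (SE 0.34, adjusted p = 0.219). PETE2, the gene for the major leaf plastocyanin, differed by 0.64 (SE 0.273, adjusted p = 0.224) and PETE1 by 0.02. The 5 Rubisco and activase genes ran from -0.20 to 0.54, highest for RBCS3B (adjusted p = 0.484). Across the 43 genes the genotypes did not overlap for 6 that were higher in abci20 total RNA (LHCA2, LHCB3, PSBO1, PSBO2, PSAO and PETE2) and 2 that were lower (LHCB4.1 and PSAE-2), where 6.76% and 10.0% of all probe sets were so placed.

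**Figure D3:**
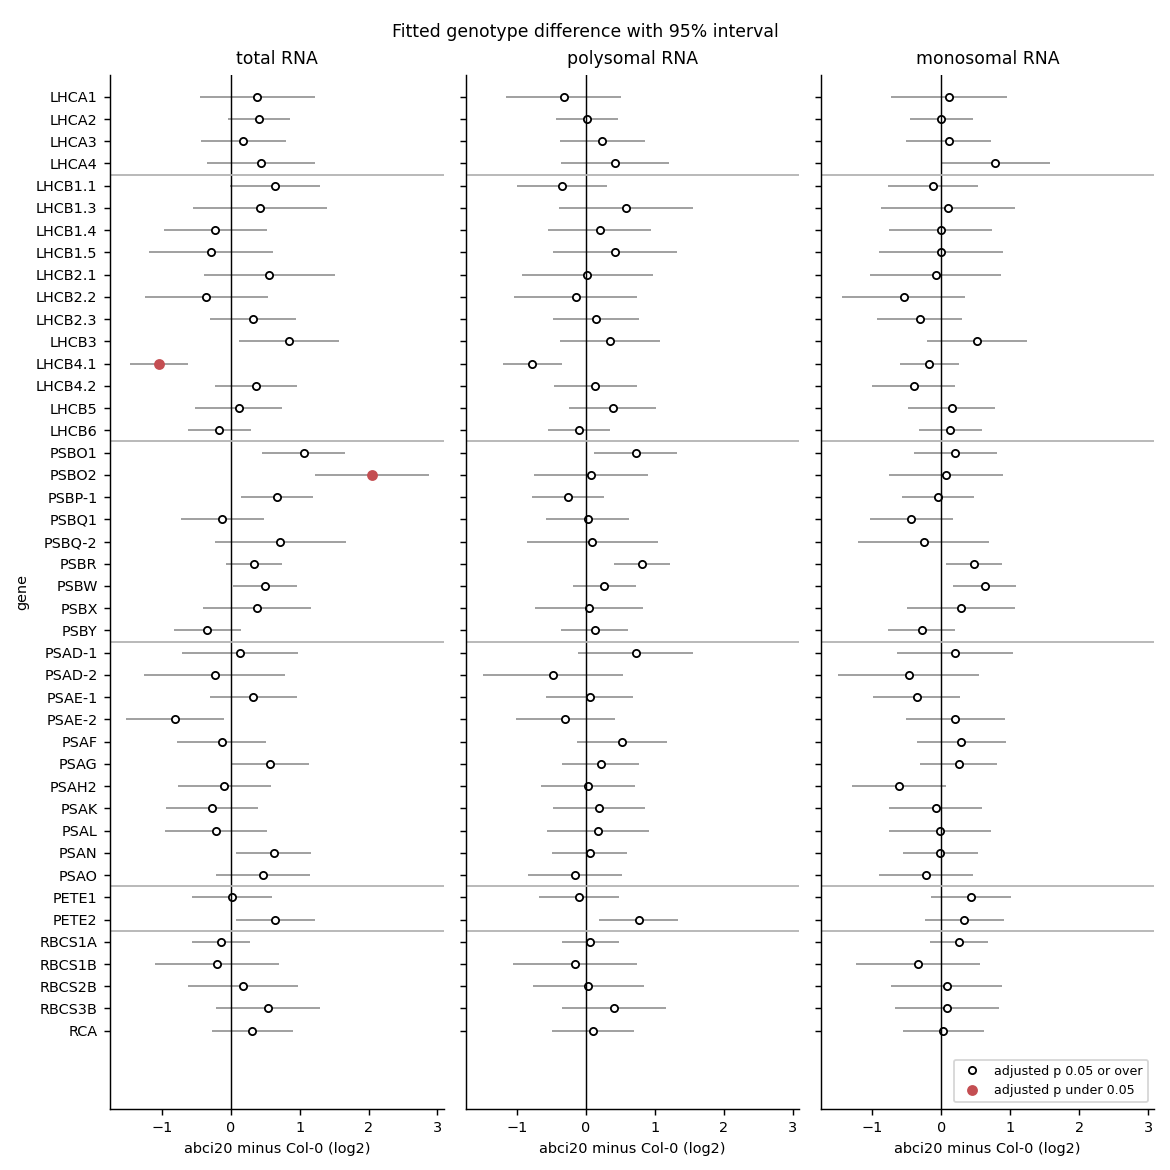
Fitted log2 difference, abci20 minus Col-0, of each gene (rows) in total, polysomal and monosomal RNA, with 95% intervals; filled red points have an adjusted p under 0.05. PSBO2 at 2.04 and LHCB4.1 at -1.04 in total RNA are the filled points, and most intervals cross 0.

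In polysomal RNA, which asks how messages carrying several ribosomes differed, 0 of the 43 genes passed under limma. Of all probe sets 0.442% passed (0.234% higher, 0.208% lower). Translation itself was not measured. At an unadjusted p under 0.05 there were 4 genes, 3 higher and 1 lower, or 9.30%, beside 7.95% of all. The median was 0.09, beside -0.01 over all probe sets, and 32 of 43 (74.4%) were above 0, beside 48.7% of all. That count moved with 1 array. On abci20 polysomal RNA replicate 3, 26 of the 43 genes (60.5%) had their highest value of the group, beside 39.2% of all probe sets, and without it 20 of 43 were above 0 and the median was -0.01.

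PSBR (AT1G79040_at) had the smallest p of the 43 in polysomal RNA. It had 7.61, 7.77 and 7.55 in abci20 and 6.90, 6.80 and 6.78 in Col-0. The genotypes were well apart, by 0.82 log2 (SE 0.192, 95% interval 0.41 to 1.22, 1.76-fold), with an adjusted p of 0.0781. It passed when only the 6 polysomal arrays were fitted (adjusted p = 0.0372), among the brighter probe sets alone (0.0228) and with a variance trend (0.015), while the range over all 13 alternatives was 0.015 to 0.368. LHCB4.1 passed among the brighter probe sets alone (adjusted p = 0.0393; range over 13 alternatives 0.0393 to 0.585).

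PETE2 (AT1G20340_at) had 3.45, 3.77 and 3.79 in abci20 polysomal RNA, against 2.68, 3.22 and 2.82 in Col-0 polysomal RNA. The groups did not overlap, and the difference was 0.77 log2 (SE 0.273, adjusted p = 0.359). PSAD-1, which encodes the ferredoxin-docking subunit of photosystem I, differed by 0.72 (adjusted p = 0.758) and its paralog PSAD-2 by -0.48 (adjusted p = 1). LHCA4 differed by 0.42 (adjusted p = 0.998) and RBCS3B by 0.41 (adjusted p = 0.994), each with the smallest p of its class. In all, 4 genes were higher without overlap (PSBO1, PSBR, PSAD-1 and PETE2) and 2 lower (LHCB4.1 and PSBP-1), beside 10.3% and 11.0% of all probe sets.

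In monosomal RNA, again, 0 of the 43 genes passed under limma, where 1.83% of all probe sets did (1.09% higher, 0.744% lower), and 2 had an unadjusted p under 0.05 (4.65%, beside 14.9% of all). The median was 0.03, beside -0.03 over all probe sets, and 23 of 43 were above 0. The 2 were PSBW and PSBR, both higher in abci20. PSBW (AT2G30570_at) had 7.13, 7.58 and 7.16 in abci20, against 6.68, 6.61 and 6.70 in Col-0. The mutant arrays were all above the Col-0 arrays, by 0.63 log2 in the fit (SE 0.219, adjusted p = 0.164). PSBR had 8.55, 8.89 and 8.77 in abci20, against 8.40, 8.26 and 8.11 in Col-0. It too did not overlap, with a difference of 0.48 (SE 0.192, adjusted p = 0.238).

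LHCA4, an antenna gene of photosystem I, was the third gene higher without overlap in monosomal RNA, with 5.65, 4.81 and 4.46 in abci20 and 4.30, 4.23 and 4.05 in Col-0 (0.78, adjusted p = 0.342). LHCB4.2 and PSAE-1 were lower without overlap. Of all probe sets 9.52% were higher without overlap and 10.3% lower. The smallest p in the remaining classes belonged to LHCB3 (0.51, adjusted p = 0.543), PSAH2, a docking subunit of photosystem I (-0.61, adjusted p = 0.401), and PETE1 (0.43, adjusted p = 0.521). RBCS1A (AT1G67090_at), a Rubisco small subunit gene, differed by 0.25 in monosomal RNA (95% interval -0.17 to 0.67), 0.06 in polysomal RNA (-0.36 to 0.48) and -0.14 in total RNA (-0.56 to 0.28).

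The difference between paralogs was set side by side for the 6 subunits with exactly 2 genes, as a description. The tests were exact permutation tests (two-sided) of the log2 difference between the paralogs on each array, with 18 tests in all. With 3 arrays against 3 the smallest p possible is 0.1, so none could pass 0.05; 8 tests reached 0.1, and the smallest adjusted p was 0.225. For LHCB4, the value of LHCB4.2 minus LHCB4.1 averaged -0.40 ± 0.28 in abci20 total RNA and -1.81 ± 0.46 in Col-0 total RNA (SD, n = 3 each, exact p = 0.1), and -1.16 ± 0.33 in abci20 polysomal RNA against -2.07 ± 0.05 in Col-0 polysomal RNA (exact p = 0.1). In monosomal RNA it averaged -1.19 ± 0.17 in abci20 and -0.96 ± 0.38 in Col-0 (exact p = 0.5). For PSBO, PSBO2 minus PSBO1 averaged 0.88 ± 0.78 in abci20 total RNA and -0.10 ± 0.63 in Col-0 total RNA (exact p = 0.3). In polysomal RNA it averaged -1.07 ± 0.21 in abci20 against -0.41 ± 0.26 in Col-0 (exact p = 0.1). The monosomal averages were -0.25 ± 0.64 in abci20 and -0.12 ± 0.77 in Col-0 (exact p = 0.9).

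For plastocyanin, PETE2 minus PETE1 averaged 1.64 ± 0.17 in abci20 polysomal RNA and 0.77 ± 0.51 in Col-0 polysomal RNA (exact p = 0.1). In total RNA it averaged 1.55 ± 0.46 in abci20 and 0.92 ± 0.10 in Col-0 (exact p = 0.1). The monosomal averages were 1.16 ± 0.62 in abci20 and 1.26 ± 0.85 in Col-0 (exact p = 0.8). PSAE-2 minus PSAE-1 was 0.50 ± 0.28 in abci20 total RNA against 1.64 ± 0.32 in Col-0 total RNA (exact p = 0.1). It lay the other way in monosomal RNA, with 0.81 ± 0.12 in abci20 and 0.25 ± 0.32 in Col-0 (exact p = 0.1). The polysomal averages were 0.88 ± 0.43 in abci20 and 1.23 ± 0.70 in Col-0 (exact p = 0.5). PSAD-2 minus PSAD-1 was 1.07 ± 0.49 in abci20 polysomal RNA against 2.26 ± 0.45 in Col-0 polysomal RNA (exact p = 0.1). Its total RNA averages were 1.90 ± 0.43 in abci20 and 2.27 ± 0.86 in Col-0 (exact p = 0.7). In monosomal RNA they were 1.88 ± 0.80 in abci20 and 2.56 ± 1.07 in Col-0 (exact p = 0.4). The PSBQ pair gave no exact p under 0.2.

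The comparison of polysomal with total RNA asks which messages were carried by several ribosomes, relative to the other messages of each sample. In abci20, 6 of the 43 genes passed, 1 higher and 5 lower in polysomal RNA, where 22.1% of all probe sets passed (11.9% higher, 10.2% lower). In Col-0, 1 of 43 passed, where 7.13% of all did (4.06% higher, 3.07% lower). LHCB4.1 was that gene in Col-0 and the higher gene in abci20. At an unadjusted p under 0.05 there were 10 genes in abci20, beside 36.1% of all probe sets, and 7 in Col-0, beside 24.4%. The polysomal and total RNA values did not overlap for 6 higher and 6 lower genes in abci20, beside 19.4% and 15.9% of all, and for 6 higher and 4 lower genes in Col-0, beside 20.4% and 14.5%. The median over the 43 was 0.00 in abci20 (all probe sets 0.02) and 0.04 in Col-0 (all 0.01). Centring each array on its median shifted the whole distribution, to 0.34 over all probe sets and 0.33 over the 43 in abci20, and to 0.22 and 0.25 in Col-0.

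LHCB4.1 was higher in polysomal than in total RNA in both genotypes, by 1.11 log2 in abci20 (SE 0.201, 2.16-fold, adjusted p = 0.00212) and 0.85 in Col-0 (SE 0.201, 1.8-fold, adjusted p = 0.0206). All polysomal values lay above all total RNA values of the same genotype. The Col-0 call was lost under quantile normalisation and when any of 5 Col-0 arrays was left out, all but total RNA replicate 3 (adjusted p 0.00772 to 0.136 over 13 alternatives). The abci20 call passed in all 12 alternatives. LHCA4 and LHCA2, antenna genes of photosystem I, were higher in polysomal RNA without overlap in both genotypes, and neither passed (LHCA4 0.87, adjusted p = 0.101 in abci20 and 0.89, adjusted p = 0.152 in Col-0). LHCA2 differed by 0.26 in abci20 (adjusted p = 0.422) and 0.65 in Col-0 (adjusted p = 0.0741). Plastocyanin and Rubisco genes did not pass in either genotype, and their smallest p values belonged to PETE1 (-0.08, adjusted p = 0.867) and RBCS2B (-0.39, adjusted p = 0.49) in abci20 and PETE2 (-0.12, adjusted p = 0.838) and RBCS3B (0.49, adjusted p = 0.437) in Col-0.

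PSBO2 fell in abci20 polysomal RNA relative to total RNA by 2.28 log2 (SE 0.393, 4.87-fold, adjusted p = 0.0015). In Col-0 the same contrast gave -0.30 (SE 0.393, adjusted p = 0.69). The difference between genotypes in this contrast was -1.98 log2 (SE 0.555, unadjusted p = 0.00237), with an adjusted p of 0.999. For this difference 0 of all 27827 probe sets passed under limma and 4.54% had an unadjusted p under 0.05, 3 of the 43 genes among them (PSBO2, PSBP-1 and LHCB1.1). The contrast and the genotype difference in total RNA use the same abci20 and Col-0 total RNA arrays, so they are not separate observations.

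LHCB1.1 (AT1G29920_at) had 0.97, 1.35 and 1.41 in abci20 polysomal RNA, against 3.45, 2.87 and 2.46 in abci20 total RNA and 2.33, 2.53 and 2.52 in abci20 monosomal RNA. In Col-0 it had 1.88, 1.39 and 1.51 in polysomal RNA, against 2.85, 2.5 and 1.51 in total RNA and 2.91, 2.43 and 2.42 in monosomal RNA. The polysomal arrays were lowest in abci20, and in Col-0 they overlapped total RNA but not monosomal RNA. Polysomal RNA was below total RNA by 1.68 log2 in abci20 (SE 0.31, adjusted p = 0.00227) and by 0.69 in Col-0 (adjusted p = 0.178). The LHCB1.1 probe set was dim, at a median percentile of 27.9 over all arrays and a lowest of 0.57. The other LHCB1 genes followed here did not fall in abci20. LHCB1.3 averaged 2.68 in polysomal and 1.94 in total RNA, LHCB1.4 2.22 and 2.13, and LHCB1.5 2.97 and 2.23. For each of these the fractions overlapped. Whether shared signal between the copies affects the LHCB1.1 difference was not tested.

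PSAN (AT5G64040_at) had 2.29, 2.33 and 2.54 in abci20 polysomal RNA, against 3.35, 3.78 and 3.93 in abci20 total RNA. The fractions were apart in abci20, with a log2 difference of -1.30 (SE 0.257, adjusted p = 0.00333), and the Col-0 difference was -0.73 (adjusted p = 0.0907). LHCB2.1 (AT2G05100_at), a major antenna gene, had 2.46, 2.61 and 2.38 in abci20 polysomal RNA, against 2.87, 4.68 and 4.56 in abci20 total RNA, a difference of -1.55 (SE 0.452, adjusted p = 0.0226). PSBQ-2 differed by -1.52 (SE 0.452, adjusted p = 0.0248), with 2.51, 1.91 and 2.5 in polysomal RNA and 2.93, 4.56 and 3.99 in total RNA. For both genes abci20 total RNA replicate 1 was the lowest total RNA array, and the calls were lost when only the compared groups were fitted, under quantile normalisation and without most of the compared arrays (up to an adjusted p of 0.119 for LHCB2.1 and 0.141 for PSBQ-2). The other LHCB2 genes fell less in abci20. LHCB2.2 averaged 2.25 in polysomal and 2.63 in total RNA, and LHCB2.3 averaged 2.24 and 2.64.

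**Figure D4:**
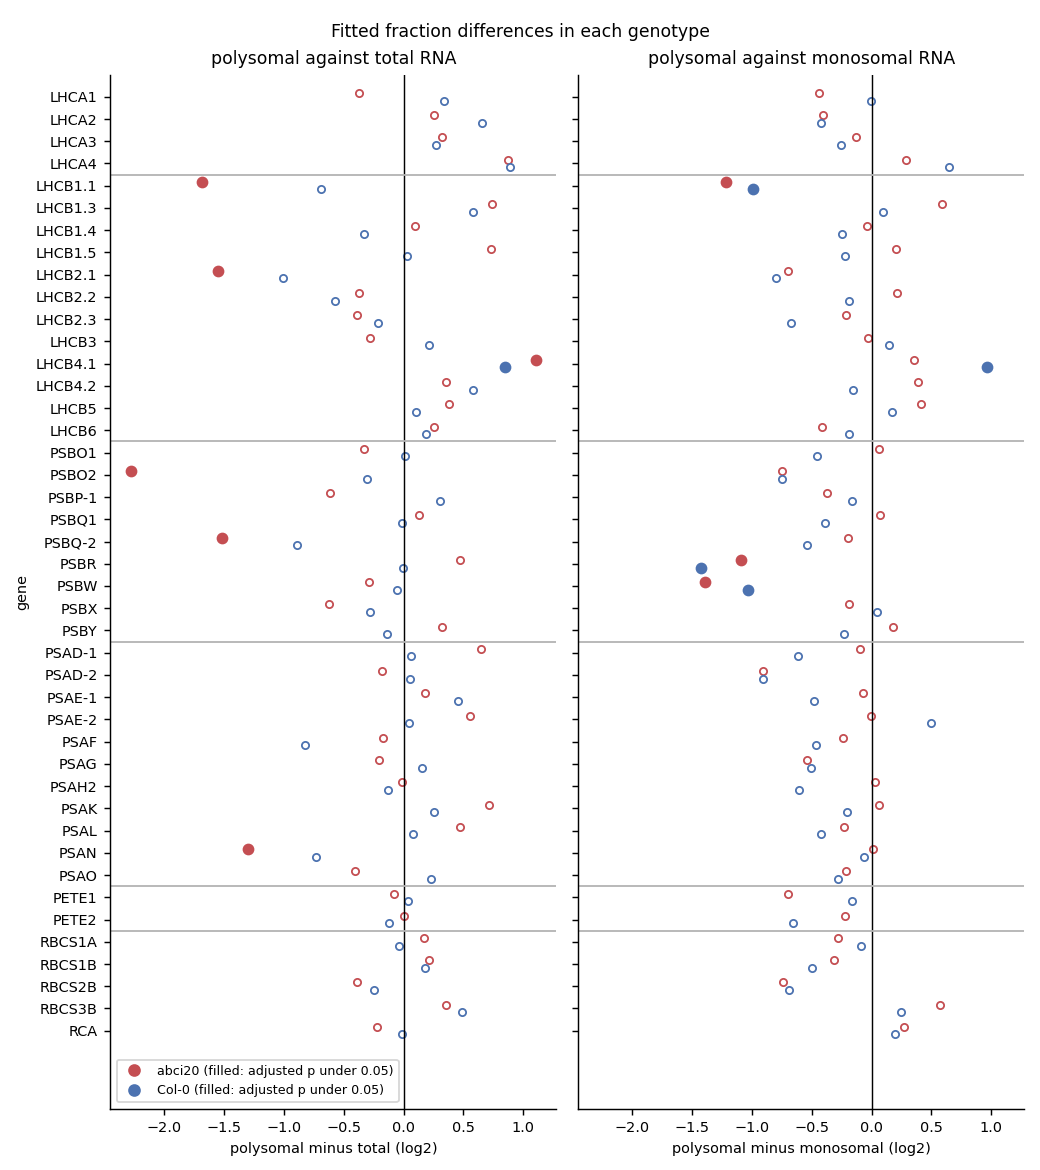
Fitted log2 differences of each gene (rows) for polysomal minus total RNA (left) and polysomal minus monosomal RNA (right), in abci20 (red) and Col-0 (blue); filled points have an adjusted p under 0.05. LHCB4.1 is filled above 0 for both genotypes on the left, and PSBR, PSBW and LHCB1.1 are filled below 0 for both genotypes on the right.

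Against monosomal RNA, polysomal RNA gave lower signal for PSBR, PSBW and the dim probe set of LHCB1.1 in both genotypes. These were the 3 of 43 genes that passed in abci20, all lower, where 10.8% of all probe sets passed (7.31% higher, 3.45% lower). In Col-0 4 of 43 passed, the same 3 and LHCB4.1, which was higher, where 12.5% of all did (8.20% higher, 4.25% lower). At an unadjusted p under 0.05 there were 4 genes in abci20, beside 25.4% of all probe sets, and 6 in Col-0, beside 29.4%. The fractions did not overlap for 1 higher and 7 lower genes in abci20, beside 17.7% and 19.5% of all, and for 2 higher and 8 lower genes in Col-0, beside 19.2% and 20.0%. The median over the 43 was -0.19 in abci20 (all probe sets -0.11) and -0.26 in Col-0 (all -0.13). Under quantile normalisation these medians were 0.05 in abci20 and -0.14 in Col-0, so the direction in abci20 depends on the scaling. The polysomal arrays here are those used against total RNA.

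PSBR had 7.61, 7.77 and 7.55 in abci20 polysomal RNA, against 8.55, 8.89 and 8.77 in abci20 monosomal RNA, and 6.90, 6.80 and 6.78 in Col-0 polysomal RNA, against 8.40, 8.26 and 8.11 in Col-0 monosomal RNA. The fractions were fully apart in both genotypes. The log2 difference was -1.09 in abci20 (SE 0.192, 2.13-fold, adjusted p = 0.00154) and -1.43 in Col-0 (SE 0.192, 2.69-fold, adjusted p = 0.000195). Against total RNA the same polysomal arrays gave 0.47 in abci20 (adjusted p = 0.0862) and -0.01 in Col-0 (adjusted p = 0.988).

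PSBW had 5.71, 6.05 and 5.94 in abci20 polysomal RNA, against 7.13, 7.58 and 7.16 in abci20 monosomal RNA, and 5.45, 5.91 and 5.54 in Col-0 polysomal RNA, against 6.68, 6.61 and 6.70 in Col-0 monosomal RNA. It too was apart, by -1.39 log2 in abci20 (SE 0.219, 2.63-fold, adjusted p = 0.000703) and -1.03 in Col-0 (SE 0.219, 2.05-fold, adjusted p = 0.00541). The calls for PSBR and PSBW passed in all 13 alternatives in each genotype. LHCB1.1 was lower by 1.21 log2 in abci20 (log2 difference -1.21, SE 0.31, adjusted p = 0.0176) and by 0.99 in Col-0 (log2 difference -0.99, SE 0.31, adjusted p = 0.0445), and its abci20 call passed in 8 of 12 alternatives and its Col-0 call in 4 of 12. The Col-0 call was lost without any 1 of the 6 Col-0 arrays compared, and the abci20 call without polysomal RNA replicate 1 or monosomal RNA replicate 2 or 3 (adjusted p up to 0.202 in Col-0 and 0.0906 in abci20). In other classes the smallest p values were those of PSAG, a photosystem I subunit (-0.54 in abci20, adjusted p = 0.211, and -0.51 in Col-0, adjusted p = 0.214), LHCA2 (-0.41, adjusted p = 0.25, and -0.42, adjusted p = 0.205), RBCS2B (-0.74 and -0.69, adjusted p = 0.236 in each), PETE1 in abci20 (-0.70, adjusted p = 0.12) and PETE2 in Col-0 (-0.65, adjusted p = 0.121).

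LHCB4.1 was higher in Col-0 polysomal than in Col-0 monosomal RNA by 0.96 log2 (SE 0.201, adjusted p = 0.00502), a call lost under quantile normalisation (adjusted p = 0.0526; range over 13 alternatives 0.00144 to 0.0526). The abci20 difference was 0.36 (adjusted p = 0.283). The genotype difference of this contrast was -0.61 (SE 0.285, unadjusted p = 0.0484, adjusted p = 1), and 0 of the 27827 probe sets passed in it under limma, with 2.67% at an unadjusted p under 0.05. RBCS1A, with 6.71, 6.67 and 7.14 in abci20 polysomal RNA and 7.18, 7.21 and 6.97 in abci20 monosomal RNA, overlapped between the fractions, and its differences were -0.28 in abci20 (95% interval -0.70 to 0.14) and -0.09 in Col-0 (-0.51 to 0.33).

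**Figure D5:**
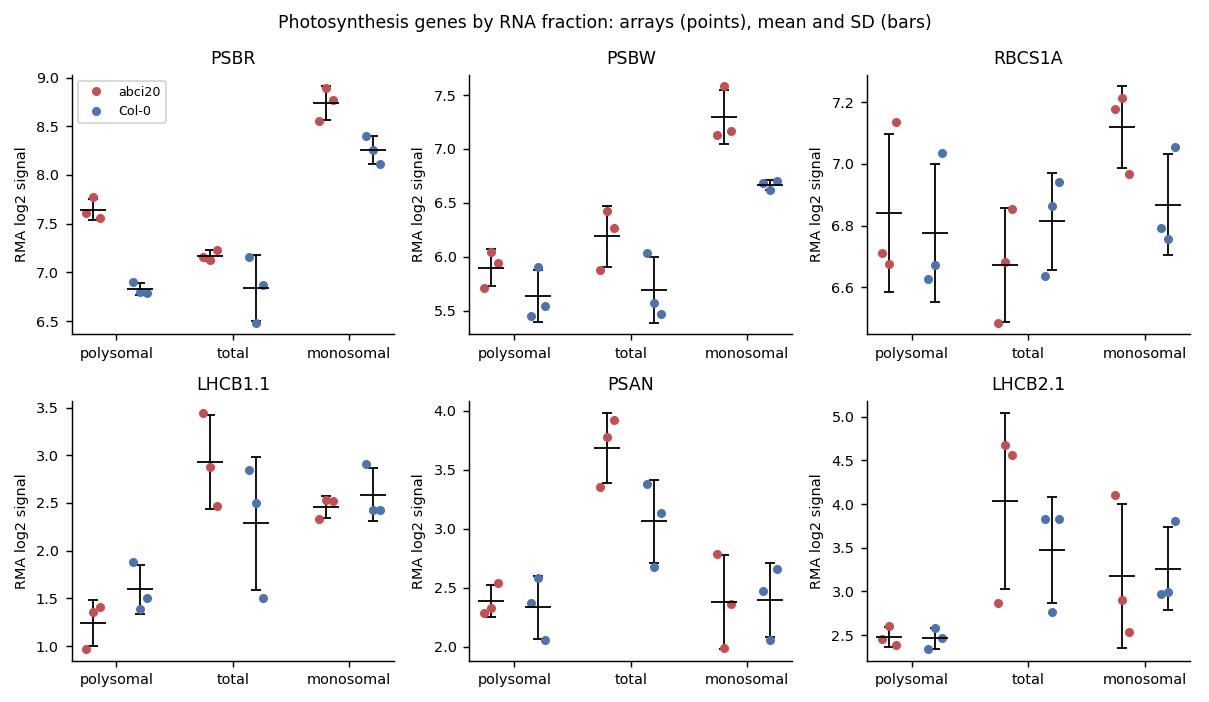
RMA log2 signal by array for PSBR, PSBW, RBCS1A, LHCB1.1, PSAN and LHCB2.1 in polysomal, total and monosomal RNA, with abci20 (red) left of Col-0 (blue); bars give the mean and SD of 3 arrays. PSBR and PSBW are highest in monosomal RNA in both genotypes, and RBCS1A in polysomal RNA overlaps each of the other fractions of its genotype.

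Genes that work beside these proteins were read from 4 lists of 51 genes. Beside each list, 3.35%, 0.442% and 1.83% of all probe sets passed in the total, polysomal and monosomal genotype comparisons. In the same order, 1.11%, 0.234% and 1.09% were higher, and 2.24%, 0.208% and 0.744% lower. Of 13 electron transport and ATP synthase genes, 0 passed in abci20 against Col-0 in total RNA and 0 in polysomal RNA under limma (2 and 1 at an unadjusted p under 0.05). In monosomal RNA 1 passed: FD1, a ferredoxin that takes electrons from photosystem I, was higher in abci20 by 1.59 log2 (SE 0.287, 3.01-fold, adjusted p = 0.00989). Its values were 7.08, 7.19 and 6.79 in abci20 monosomal RNA and 4.84, 5.71 and 5.74 in Col-0 monosomal RNA, without overlap. In polysomal RNA FD1 did not pass, but its genotypes did not overlap there either. The medians of the list were 0.11, 0.19 and 0.14 in total, polysomal and monosomal RNA.

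Of 15 Calvin-Benson cycle genes, 2 were higher in abci20 total RNA, 1 in polysomal RNA and 1 in monosomal RNA, with 0 lower. Of all probe sets 1.11%, 0.234% and 1.09% were higher in these fractions. HCEF1, the plastid fructose-1,6-bisphosphatase, was higher in total RNA by 1.23 log2 (adjusted p = 0.0261). TKL1, a transketolase, was higher by 1.01 in total RNA (adjusted p = 0.0208) and 1.11 in monosomal RNA (adjusted p = 0.019). GAPB, a subunit of the plastid glyceraldehyde-3-phosphate dehydrogenase, was higher by 1.24 in polysomal RNA (adjusted p = 0.0193), with 4.28, 4.21 and 4.62 in abci20 and 2.92, 3.17 and 3.31 in Col-0. The genotypes of these genes were also apart in the fractions where they did not pass. For TKL1 the polysomal values were 8.99, 9.04 and 8.44 in abci20 and 7.79, 8.08 and 8.03 in Col-0. The GAPB call was lost under quantile normalisation, with centred arrays and without any 1 of its 6 arrays (adjusted p 0.00671 to 0.159), and HCEF1 passed in 8 of 12 alternatives and TKL1 in total RNA in 6 of 12. The median of the list was 0.36 in total RNA, 0.00 in polysomal RNA and 0.04 in monosomal RNA.

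Chlorophyll synthesis showed 1 lower gene among 17 in total RNA and in monosomal RNA, and 0 of 17 in polysomal RNA under limma (2 at an unadjusted p under 0.05). The gene was CAO, chlorophyllide a oxygenase, which makes the chlorophyll b of the antenna proteins. It had 5.93, 5.74 and 6.09 in abci20 total RNA, against 7.34, 7.43 and 7.42 in Col-0 total RNA, and fell by 1.48 log2 in abci20 (SE 0.221, 2.78-fold, adjusted p = 0.00176). The genotypes were also apart in polysomal RNA (-1.0, adjusted p = 0.0572) and monosomal RNA (-1.10, adjusted p = 0.0172). Of the light-harvesting genes in total RNA, 7 of 12 for photosystem II and 4 of 4 for photosystem I were above 0. LHCB4.1, given above, was lower, and a link to CAO was not tested.

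Of 6 regulators of photosynthesis genes, 2 were higher in abci20 total RNA, 2 in monosomal RNA, and 0 passed in polysomal RNA under limma (2 at an unadjusted p under 0.05). Of all probe sets 1.11% were higher in total RNA and 1.09% in monosomal RNA. The GATA factor CGA1 was higher by 1.88 log2 in total RNA (adjusted p = 0.0272) and 2.25 in monosomal RNA (adjusted p = 0.0165), and the related GNC by 1.94 in monosomal RNA (adjusted p = 0.0135). GLK2, a transcription factor of chloroplast development, was higher by 1.20 in total RNA (adjusted p = 0.0133), while GLK1 differed by 0.06 (adjusted p = 0.942). CGA1 had 7.67, 6.16 and 6.40 in abci20 total RNA, against 4.18, 5.10 and 5.30 in Col-0 total RNA, with replicate 1 the highest abci20 array and replicate 1 the lowest Col-0 array. Its total RNA call was lost without abci20 replicate 1 (1.42, adjusted p = 0.0515), Col-0 replicate 1 (1.54, adjusted p = 0.113) or Col-0 replicate 2 (2.0, adjusted p = 0.0505), with a range over 12 alternatives of 0.00934 to 0.301. With only the compared groups fitted, the total RNA calls of CAO, HCEF1, TKL1, CGA1 and GLK2 were all lost (adjusted p 0.185 to 0.376), and GLK2 also without Col-0 total RNA replicate 1. In monosomal RNA the FD1, TKL1, CAO, GNC and CGA1 calls were lost with only the compared groups and without abci20 monosomal RNA replicate 2, and their highest adjusted p over 13 alternatives ran from 0.0762 to 0.146.

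Markers of other seed tissues were read in the same comparisons. Beside the median of 0.32 over the 43 photosynthesis genes in total RNA, the median fitted difference was 0.31 over the 5 endosperm markers (3 above 0), 0.22 over the 8 seed coat markers (6 above 0) and -0.28 over the 9 embryo storage markers (1 above 0). Of the endosperm markers, 0 passed in total RNA (0 at an unadjusted p under 0.05), and the array medians of the list ran from 2.13 to 3.52 in abci20 total RNA and from 2.49 to 2.90 in Col-0 total RNA. In monosomal RNA MAN7 was higher by 1.21 log2 (adjusted p = 0.0464, passing in 5 of 12 alternatives), and SUC5 had the lowest position of these markers, at a median percentile of 10.6. Of the 8 seed coat markers 0 passed in any of the 3 RNA fractions under limma (0 at an unadjusted p under 0.05 in each), and their array medians ran from 2.22 to 2.63 in abci20 total RNA and from 2.18 to 2.27 in Col-0 total RNA. Of the 9 embryo storage markers 0 passed (2 lower at an unadjusted p under 0.05 in total RNA), and their array medians ran from 11.3 to 11.8 in abci20 total RNA and from 11.8 to 12 in Col-0 total RNA. Their part in the differences of PSBO2 and LHCB4.1 and in the median of the 43 genes was not tested.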

How the data were processed

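Per the labels' protocols, RNA was extracted with TriPure, cleaned on RNeasy columns, and labelled with a 3-prime one-cycle kit. Per the submitters' processing notes, the authors summarised the arrays with RMA, and the deposited values are log2 signals, from 0.301 to 12.7. The sources used here do not say whether all 18 arrays were processed together or how the ribosome fractions were made. Probe sets were named through the RefSeq table of TAIR10.1, which matched 27241 of 27827, and sequences were not used here.

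A linear model with a coefficient for each of the 6 groups was fitted to the 18 arrays (limma 3.58.1, lmFit, then eBayes; R 4.3.3; 12 residual degrees of freedom). Two-sided p-values were adjusted by Benjamini and Hochberg's method across the 27827 probe sets, with a threshold of 0.05. A difference had a median standard error of 0.291 log2, and the number of arrays limits precision. There were 9 comparisons: abci20 against Col-0 in 3 fractions, polysomal against total and monosomal RNA in each genotype, and 2 genotype differences of these contrasts. Paralogs were compared with exact permutation tests (scipy 1.17.1), and figures drawn with matplotlib 3.10.9.

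Per the labels' protocols plants grew in complete blocks, but no label says that a replicate number marks a block. Residual correlations between like-numbered arrays ran from -0.166 to 0.245, and 7 of 21 exceeded 0.1. Like-numbered arrays of different fractions may come from the same seed bulk, so the 3 genotype comparisons are not independent. Alternatives were a replicate block, only the compared groups (4 residual degrees of freedom), quantile normalisation, median centring, brighter probe sets only (ranked by the mean of their brightest group, the upper part of the array: 13913, with 12 of the 43 genes), a variance trend with robust estimation (statmod 1.5.0), and leaving out each array. Leaving abci20 total RNA replicate 1 out of comparisons that do not use it was added after seeing the data.

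The genes, lists and tests were chosen with earlier results of these data known. Named with values were genes past the threshold in a genotype comparison and their paralogs, the smallest p per class and comparison, up to 5 per direction in fraction comparisons, and up to 3 per list. PSBR and other genes without overlap were given values in addition.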

Additional observations from a re-analysis of the deposited data

How the results depend on the processing

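A replicate block left the count of photosynthesis genes past the threshold at 2, 0 and 0 in the total, polysomal and monosomal genotype comparisons; it added LHCB1.5 (adjusted p = 0.0493) in polysomal against total RNA of abci20, for 7 genes against 6, and changed no other call of the 43. With only the compared groups, 0 genes passed in total RNA and 1 in polysomal RNA. In polysomal RNA 2 passed when the brighter probe sets alone were fitted, and 1 with a variance trend. The count over all probe sets in total RNA was 932, against 0 with only the compared groups, 1701 for the brighter ones, 1520 with a modelled variance trend and 2640 without abci20 total RNA replicate 1. Leaving out other arrays lowered it, to 355 without Col-0 replicate 3, 457 without Col-0 replicate 1, 504 without abci20 replicate 2 and 619 without Col-0 replicate 2. Over all alternatives the count over all probe sets ran from 27 to 423 (main 123) in polysomal RNA and from 25 to 1087 (main 510) in monosomal RNA. For polysomal against total RNA it ran from 1590 to 9163 (main 6149) in abci20 and from 426 to 3649 (main 1985) in Col-0, and for polysomal against monosomal RNA from 1475 to 4008 (main 2994) in abci20 and from 1730 to 4795 (main 3467) in Col-0. The genotype difference of polysomal against total RNA had 28 probe sets, against 0, without abci20 total RNA replicate 1, with 0 of the 43 genes among them. For polysomal against total RNA in Col-0, 0 genes passed under quantile normalisation, 2 with centred arrays, and 0 to 2 when each array was left out, with 2 without abci20 total RNA replicate 1. For polysomal against monosomal RNA in Col-0, 2 passed under quantile normalisation, against 4.

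The median over the 43 genes was 0.18 in total RNA with centred arrays, and 0.15 to 0.35 when each array was left out. For polysomal against total RNA it was 0.23 under quantile normalisation and 0.33 with centred arrays in abci20, with -0.087 to 0.14 on leaving out arrays, and 0.25 with centred arrays in Col-0. For polysomal against monosomal RNA it was 0.050 under quantile normalisation and -0.33 among brighter probe sets in abci20, with -0.32 to -0.074 on leaving out arrays, and -0.14 under quantile normalisation in Col-0. The genotype differences of these contrasts had medians of -0.15 to 0.11 and -0.050 to 0.27 on leaving out arrays, and the second was -0.0010 among brighter probe sets. The cause of these shifts was not tested. Of the recomputed counts and medians, 222 stayed within 1.5 times the main count or within 0.123 log2, the SD between replicates of the median over the 43 genes, and 30 moved further. Of the recomputed differences of single genes, 449 kept their side of the threshold, 86 lost it, 4 gained it and 0 changed sign. Most of the 43 probe sets lie below the array median, and their signal over background was not measured here.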

Other observations

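On Col-0 monosomal RNA replicate 3, 23 of the 43 photosynthesis genes (53.5%) had their highest value of the group, beside 32.8% of all probe sets. On abci20 monosomal RNA replicate 2, the genes lay at a median of -0.20 log2 from their group means, beside -0.01 over all probe sets. The cause of these shifts was not tested.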
